A study of Homo sapiens with 12 samples.

Results

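Integrins and the proteins that tie them to the cytoskeleton were examined in Rh30, a human alveolar rhabdomyosarcoma line that carries the PAX3-FKHR fusion. The 34 genes were chosen by name among 23870 gene names on the array, and they are measured by 61 probes, 1 probe for 19 genes and several for 15. They comprise 12 integrin alpha subunits, 6 beta subunits and 16 cytoplasmic proteins of focal adhesions. The brightest probe stands for each gene, and every probe was followed for ITGA9 and for the genes that stood out. Untransfected parental Rh30 cells (WT) were compared with a clone stably carrying a non-targeting shRNA (CON) and with a clone stably carrying an shRNA against PAX3-FKHR (KD1). Both clones were made with the same retroviral vector and kept in puromycin at 1 μg/mL, whereas WT cells grew without it, and all cells were harvested at 24 h. KD1 and CON are 1 clone each, so the knockdown cannot be told apart from other differences between these clones. Each culture gave 2 RNA extracts, labeled 1 and 2, and 500 ng of RNA was labeled with Cy3 or Cy5. The extracts were hybridized as KD1 vs CON, KD1 vs WT and WT vs CON on 12 arrays, with a dye-swap pair for each replicate. Both KD1 comparisons use the same KD1 extracts, so their values are given side by side and are not independent. The p-values measure the spread between these extracts.

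Integrins are receptors made of 1 alpha and 1 beta chain that span the membrane, bind matrix proteins outside the cell and connect to actin inside it. Talin and kindlins bind the beta tail and switch the receptor on, vinculin and the ILK-PINCH-parvin complex strengthen the link to actin, and FAK (PTK2) and SRC pass on signals through paxillin and p130Cas (BCAR1). Integrins that share the beta 1 chain are the main matrix receptors of skeletal muscle, where alpha 7 beta 1 holds the fibre to laminin.

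ITGA9, ITGB3 and ITGA2 carry the results below and have several probes each, so these probes are shown first. The opening 30 bases of each 60-base probe are given in lower case as deposited, with its position on build NCBI36 (plus strand). The ITGA9 probes lie at chr3:37835561-37835620 (A_23_P252193), chr3:37839609-37839668 (A_24_P607904), which starts 4048 bases further on, and chr3:37540031-37540090 (A_24_P51166).
ITGA9 A_23_P252193: aaatcttctccagatttttcggaggcccca
ITGA9 A_24_P607904: agcacatggggggaataagtgaacaaattt
ITGA9 A_24_P51166: aagataaatccagtgctccggatgtttggt
The ITGB3 probes lie at chr17:42744026-42744085 (A_24_P318656), chr17:42743726-42743785 (A_23_P38519) and chr17:42723653-42723712 (A_24_P929003).
ITGB3 A_24_P318656: atgtgtggacacattggacctttcctgagg
ITGB3 A_23_P38519: tggcctgttcttctatgggttggacaacct
ITGB3 A_24_P929003: cgatttctgttacgtgaacttcactctcag
The ITGA2 probe well above background in WT lies at chr5:52424025-52424084 (A_32_P208076), and a probe not well above background in any culture lies at chr5:52421568-52421627 (A_23_P70161).
ITGA2 A_32_P208076: agtccagggctatctgtactgtttacagaa
ITGA2 A_23_P70161: cgaagtaccaacaggagttataataggaag

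Across the arrays, 71.1% to 73.6% of spots were well above background in Cy3 and 64.4% to 67.8% in Cy5. Precision is limited by how few arrays there are. The muscle markers MYOD1, MYOG, MYF5, DES and CDH15 were well above background in every channel, and the leukocyte marker PTPRC in none. No probe spans the fusion junction. The probes of PAX3 and FOXO1 (FKHR) were not placed relative to the fusion breakpoints, so which of them read the fusion was not checked. The paper reports less fusion mRNA and protein in KD1 than in CON, by RT-PCR and Western blot. The brightest probes of PAX3 and FOXO1 averaged −0.42 each in KD1 vs CON on the log2 scale, and −0.39 and −0.60 against WT, without passing the adjusted threshold. In the same order of comparisons, the other PAX3 probes averaged −0.09 and 0.06 (A_23_P209499) and −0.28 and −0.25 (A_24_P362595). On the minus strand of chromosome 2, A_23_P209499 lies at 222773025, downstream of A_24_P362595 (222867205) and of the brightest PAX3 probe (222867260). The other FOXO1 probe averaged −0.39 and −0.30. All 4 WT vs CON arrays shared a slide, whereas the KD1 arrays of each replicate had a slide of their own, so replicate and slide cannot be told apart there. The WT extracts differed in the epithelial marker EPCAM, whose log2 level was 7.36 in WT extract 2 and between 1.77 and 1.98 in the other 5 extracts. The 3 comparisons nearly added up for the members: the KD1 vs WT ratio plus the WT vs CON ratio differed from the KD1 vs CON ratio by a median of 0.0473 in replicate 1 and 0.0498 in replicate 2 over 29 genes, on the log2 scale, and by at most 0.172 and 0.462.

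In the knockdown clone, the alpha 9 chain of integrin was higher and no other member passed the test against CON or WT with its brightest probe. ITGA9 encodes the partner of beta 1 in a receptor for tenascin-C, osteopontin and VCAM1. On its brightest probe KD1 exceeded CON by 1.40 in replicate 1 and 1.54 in replicate 2 on the log2 scale, and exceeded WT by 1.31 in both, with the same sign on every array. The mean ratio was 1.47 (SE 0.19, n = 2, 2.77-fold) against CON and 1.31 (SE 0.19, n = 2, 2.48-fold) against WT, with adjusted p = 0.0148 and 0.0302 by limma. The CON signal, although flagged well above background on all 4 arrays, did not exceed the negative control limit on every array, so in KD1 vs CON the probe passed the filter through KD1, and with both channels required it was not tested there and had adjusted p = 0.0351 in KD1 vs WT. With normexp background correction the mean ratios were 0.47 and 0.46 and ITGA9 was not called (adjusted p = 0.197 and 0.177). WT and CON did not differ beyond the spread for this probe (0.01, SE 0.20, adjusted p = 0.99). The log2 levels of this probe were 7.54 and 7.56 in the KD1 extracts, 6.15 and 5.97 in CON and 6.08 and 5.99 in WT. The KD1 levels lay above all 4 others, and those of CON and WT overlapped. Such a lack of overlap is given as a description: both KD1 extracts lay above the other 4 for 4 and below them for 2 of the 29 members that passed the filter in all comparisons, beside 10.6% and 11.2% of all genes, and both WT extracts lay above for 5, beside 10.2%. Both WT extracts lay below for 1, beside 12.5%. Both CON extracts lay below the other 4 for 5 of these members, beside 11.4%, and above them for 3, beside 12.8%.

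The probe that lies further downstream, A_24_P607904, was well above background in 8 of 8 KD1 channels, 0 of 8 CON channels and 1 of 8 WT channels. It passed the filter through KD1, and CON gives only a bound, against which KD1 was at least 11.3-fold higher. The adjusted p by limma was 0.00011, computed on a CON signal at background. WT was well above background on 1 of the 4 KD1 vs WT arrays, so no fold is given there. The upstream probe A_24_P51166 was not well above background in any channel and was not tested. All KD1 signal of ITGA9 above background was on the pair of probes nearer the downstream end.

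**Figure D1:**
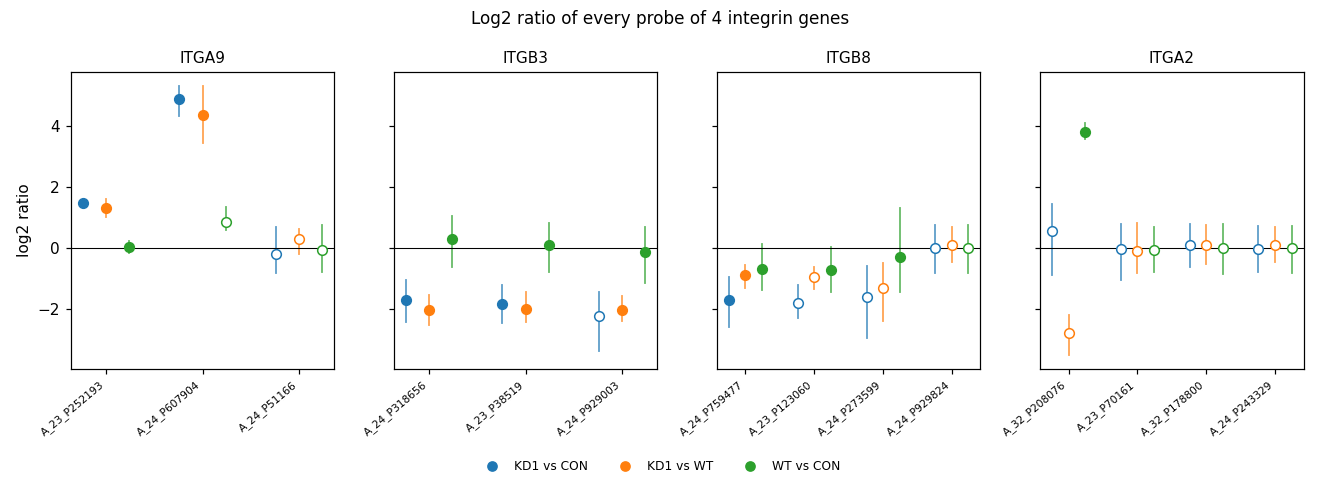
Log2 ratio (y axis) of every probe of ITGA9, ITGB3, ITGB8 and ITGA2 (x axis) in the 3 comparisons. Points are the means of 2 replicates, lines run from the lowest to the highest of 4 arrays, and open points did not pass the signal filter. The means of the 3 ITGB3 probes lie between −2.25 and −1.73 in both KD1 comparisons, whereas those of ITGA9 and ITGA2 range from probes at background in all cultures to plotted means of 4.87 and 3.80, where CON was at background and the plotted size is not measured.

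Of the 34 genes, 29 passed the signal filter against CON and 30 against WT, and ITGA9 was the single gene called in each. Against CON it passed the filter through KD1, and with both channels required 0 members were called there. Among all genes tested, 0.893% were called higher and 1.1% lower in KD1 than in CON, and 0.373% higher and 0.935% lower than in WT. An unadjusted p under 0.05 was reached by 8 members against CON, beside 17.8% of all genes, and by 9 against WT, beside 17.2%. By the 2-fold criteria, which ask for a mean of at least 2-fold with the same direction on all 4 arrays, ITGA9 and ITGA3 were higher and ITGB3 and ITGB8 lower in KD1 vs CON, against 2.18% of all genes higher and 2.28% lower. In KD1 vs WT, ITGA9 was higher and ITGB3 lower, against 2.14% and 2.6%. The median log2 ratio of the members was 0.11 against CON and −0.09 against WT, beside −0.017 and 0.0012 over all genes. With replicate 2 left out, 7 members passed 2-fold in KD1 vs WT (ITGA1, ITGA2, ITGA3, ITGA7, ITGAV and ITGB3 lower, ITGA9 higher), beside 8.43% of all genes, and with replicate 1 left out 4 did (ITGA7 and ITGA9 higher, ITGA11 and ITGB3 lower), beside 10.2%. Among the muscle markers, MYOG had a mean of −1.14 in KD1 vs CON (adjusted p = 0.0505) and MYF5 of −1.92 in KD1 vs WT (adjusted p = 0.068), both past 2-fold, and their part in the members' values was not tested.

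ITGB3, the beta chain of the vitronectin receptor and of the platelet fibrinogen receptor, had the most negative mean ratio of the members tested in KD1 vs WT. Its brightest probe gave −2.07 and −2.04 against WT on the log2 scale, and −1.10 and −2.35 against CON. The mean was −1.73 (SE 0.35, n = 2, adjusted p = 0.0583) against CON and −2.06 (SE 0.35, n = 2, adjusted p = 0.051) against WT, outside the threshold of 0.05. With 3 residual degrees of freedom in place of 2, the adjusted p was 0.118 and 0.107. The probe A_23_P38519, which is printed in 10 spots per array, passed it in both, at −1.85 (adjusted p = 0.0442) and −2.01 (adjusted p = 0.0498). The probe A_24_P929003 had −2.25 in KD1 vs CON, where it was not tested, and −2.05 in KD1 vs WT (adjusted p = 0.0549). The log2 levels of the brightest probe were 7.67 and 7.26 in KD1, 8.72 and 9.91 in CON and 9.74 and 9.33 in WT, so KD1 lay below all other extracts while WT and CON overlapped. ITGB3 is among the genes the study itself selected on these arrays, so this is not independent evidence of its direction.

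ITGB8, which pairs with alpha v and releases active TGF-beta from its latent form, gave −1.01 and −2.44 against CON (mean −1.73, SE 0.34, n = 2, adjusted p = 0.0566). With both channels required above the negative controls, its brightest probe did not pass the filter in KD1 vs CON. Against WT, ITGB8 gave −0.78 and −0.98 (mean −0.88, adjusted p = 0.255). The log2 levels were 6.74 and 6.05 in KD1, 7.55 and 7.23 in WT and 7.75 and 8.61 in CON, in that order without overlap, although none of the 3 differences passed the test. Of the dimmer probes, none passed the filter in KD1 vs CON, so none was tested there. A_23_P123060 gave −1.83, KD1 cleared the background for A_24_P273599 on 1 array only, and the fourth ITGB8 probe was not well above background anywhere. ITGB6, another partner of alpha v that binds latent TGF-beta, had −0.91 and −0.80 against CON (mean −0.86, adjusted p = 0.146) and 0.35 and −0.17 against WT. The remaining beta chains showed smaller ratios, with mean log2 ratios in KD1 vs CON of −0.05 for ITGB5, −0.02 for ITGB4, the laminin-binding chain of epithelial hemidesmosomes, and 0.58 for ITGB1 (adjusted p = 0.288).

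**Figure D2:**
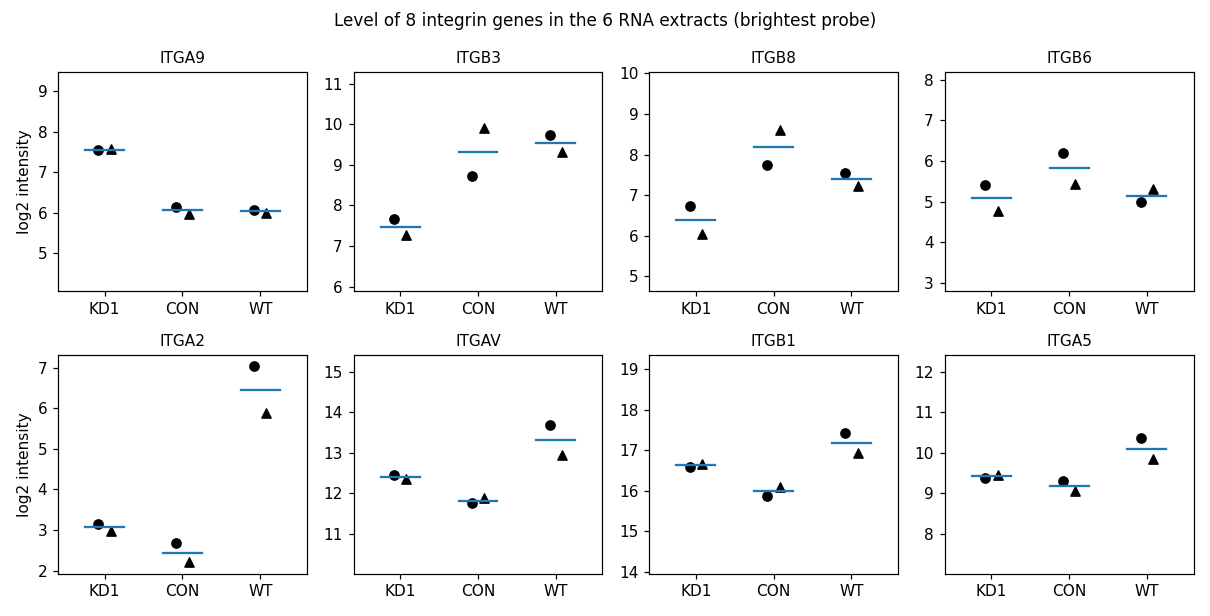
Log2 intensity (y axis) of the brightest probe of 8 integrin genes in the 2 extracts of KD1, CON and WT (x axis). Circles are extract 1, triangles extract 2 and lines their mean, each panel spans the same number of log2 units, and levels are not comparable between panels. KD1 stands above the others for ITGA9 and below them for ITGB3 and ITGB8, and WT stands above the others for ITGA2, ITGAV, ITGB1 and ITGA5. For these last genes CON also stands below the others, although ITGA2 was at background in both CON and KD1. CON stands above the others for ITGB6 and ITGB8.

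The other alpha chains showed no call in the KD1 comparisons. ITGA3, which pairs with beta 1 as a laminin receptor, had 0.38 and 1.72 against CON (mean 1.05, SE 0.40, n = 2, adjusted p = 0.235), but its replicates of KD1 vs WT had opposite signs, −1.24 and 0.59. ITGA7, the muscle laminin receptor chain, likewise had −1.33 and 1.12 against WT and −0.27 and 0.89 against CON. The cultures overlapped for ITGA7, whose log2 level was 14.97 and 16.37 in KD1, 15.20 and 15.45 in CON and 16.26 and 15.25 in WT. ITGA4, the other partner of beta 1 that binds VCAM1, had means of 0.55 and 0.16, and ITGA6, a laminin receptor chain, 0.06 and −0.06. The collagen receptor chain ITGA1 had means of −0.25 against CON and −0.88 against WT (adjusted p = 0.277). ITGA11, a collagen receptor chain that passed the filter in KD1 vs WT and WT vs CON, had 0.24 and −1.95 in KD1 vs WT. ITGA8 and ITGA10 were not well above background in any channel and have no measured ratio.

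None of the cytoplasmic proteins of focal adhesions passed the test. In KD1 vs CON, 15 of the 16 genes passed the filter, none reached 2-fold, and 1 had an unadjusted p under 0.05. That gene was FERMT2 (kindlin-2), the kindlin of muscle and fibroblasts, with 0.50 and 0.81 (mean 0.66, SE 0.21, n = 2, adjusted p = 0.177). In KD1 vs WT it had 0.57 and 0.34 (mean 0.46, adjusted p = 0.33). PARVA (alpha-parvin), an actin-binding partner of ILK, had means of 0.50 and 0.58 in the same order on its brightest probe and 0.43 and 0.27 on the other, and ZYX (zyxin), a mechanosensitive LIM protein, 0.44 and 0.49.

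TLN2 (talin 2) had means of −0.28 against CON and −0.64 against WT (adjusted p = 0.215), and its companion TLN1 had −0.04 and −0.17. The kinases had means of −0.14 and −0.17 for PTK2 and 0.43 and 0.09 for SRC. Their scaffolds had 0.03 and 0.08 for PXN (paxillin), 0.30 and 0.29 for BCAR1 and −0.20 and 0.01 for TGFB1I1 (Hic-5). The mean ratios of VCL (vinculin) were 0.20 and −0.10, those of ILK 0.11 and 0.18 and those of LIMS1 (PINCH-1) 0.07 and −0.14. The tensins, which join the beta tail to actin, had 0.25 and 0.02 for TNS1 and −0.30 and −0.45 for TNS3. PARVB (beta-parvin) did not pass the filter in either KD1 comparison, and its replicates had opposite signs, 0.33 and −2.60 in KD1 vs CON.

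**Figure D3:**
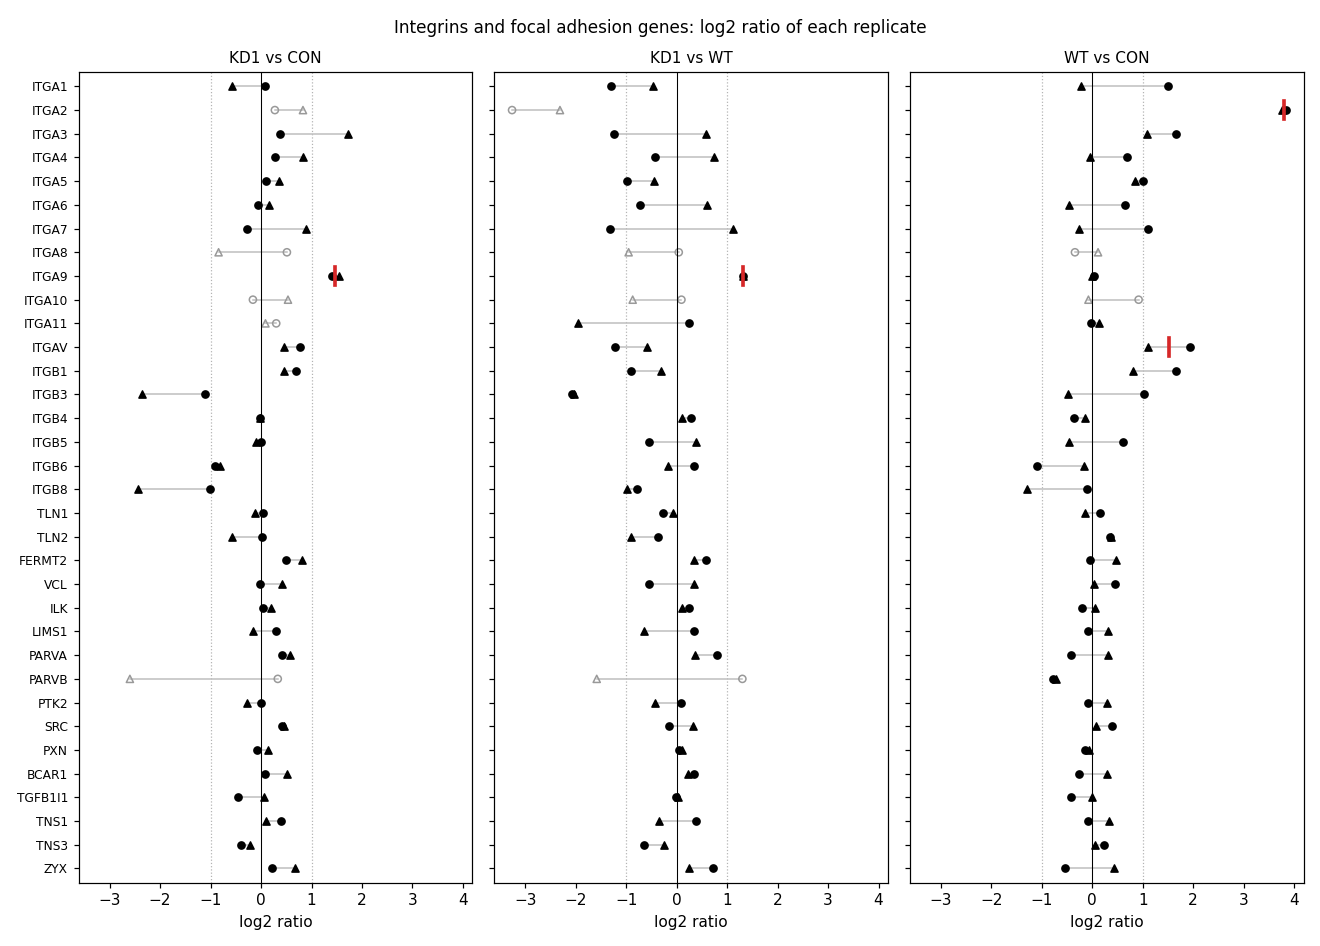
Log2 ratio (x axis) of the brightest probe of all 34 genes (y axis) in the 3 comparisons. Circles are replicate 1 and triangles replicate 2, open gray symbols did not pass the signal filter, red bars mark means called by limma and dotted lines mark 2-fold. The integrin chains spread widely, and the mean ratios of the 16 cytoplasmic genes that passed the filter lie between −0.75 and 0.66.

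Parental cells and the control clone, neither of which carries the knockdown, also differed in integrin genes. In WT vs CON, 32 members passed the filter and 2 were called, both higher in WT, where 0.957% of all genes were called higher and 0.679% lower. Of these 2, ITGA2 passed the filter only through WT, with its CON signal at background. With both channels required above the negative controls, 1 member was called, ITGAV, and ITGA2 was not tested. The 2-fold criteria selected ITGA2, again through WT, ITGA3, ITGAV and ITGB1 as higher and no member as lower, against 2.69% and 2.23% of all genes. With replicate 2 left out, 8 members passed 2-fold: ITGA1, ITGA2, ITGA3, ITGA7, ITGAV, ITGB1 and ITGB3 higher and ITGB6 lower, beside 7.99% of all genes. The median log2 ratio of the members was 0.10, beside −0.028 over all genes.

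ITGA2, the alpha chain of the collagen receptor alpha 2 beta 1, was well above background in WT alone. The probe A_32_P208076 was well above background in 8 of 8 WT channels and in 0 of 8 channels of KD1 and of CON. Its log2 level was 7.04 in WT extract 1 and 5.89 in WT extract 2. It passed the filter in WT vs CON through WT, and WT was at least 6.08-fold higher, with an adjusted p of 0.00142 by limma computed on a CON signal at background. KD1 was at least 5.52-fold lower than WT, which was not tested because the filter was not passed on every array. The other 3 ITGA2 probes, A_23_P70161 among them, were not well above background in any channel, WT included, so the difference rests on 1 of 4 probes. Averaged over the 4 probes, ITGA2 had a mean of 0.93 and was not called (adjusted p = 0.075). With normexp its brightest probe had 0.67 in WT vs CON (adjusted p = 0.164) and −0.52 in KD1 vs WT, and with both channels required above the negative controls it was not tested.

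ITGAV, the alpha v chain shared by receptors for vitronectin and latent TGF-beta, gave 1.93 and 1.10 for WT against CON and was higher in WT on all 4 arrays (mean 1.51, SE 0.26, n = 2, adjusted p = 0.0431, 2.86-fold). KD1 against WT gave −1.22 and −0.59 (mean −0.90, adjusted p = 0.15), and KD1 against CON gave 0.76 and 0.46 (mean 0.61, adjusted p = 0.264). Its log2 levels were 13.68 and 12.93 in WT, 12.46 and 12.35 in KD1 and 11.75 and 11.89 in CON, so the cultures were ordered WT, KD1, CON without overlap. The call in WT vs CON was lost with separate-channel values per extract in place of paired ratios (1.49, adjusted p = 0.0921), as with normexp background correction (adjusted p = 0.131), without the signal filter (adjusted p = 0.087) and with 3 residual degrees of freedom (adjusted p = 0.0746). A second ITGAV probe was not well above background anywhere.

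ITGB1, the beta chain with the most alpha partners, followed the same order. Its brightest probe gave 1.67 and 0.81 in WT vs CON (mean 1.24, SE 0.25, n = 2, adjusted p = 0.0727), and all 4 ITGB1 probes, 1 of which the files place on another chromosome, had means between 1.06 and 1.24. The log2 levels were 17.43 and 16.92 in WT, 16.59 and 16.66 in KD1 and 15.87 and 16.09 in CON. ITGA5, which with beta 1 forms the classical fibronectin receptor, had 1.00 and 0.85 in WT vs CON (mean 0.92, SE 0.22, n = 2, adjusted p = 0.0961) and −0.98 and −0.44 in KD1 vs WT (adjusted p = 0.164). ITGA3 had 1.66 and 1.09 in WT vs CON (mean 1.38, SE 0.40, n = 2, adjusted p = 0.157). The extracts of WT lay above those of CON for each of these 3 genes, but none of them passed the adjusted threshold.

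Some genes of the epithelial and muscle marker lists also differed between WT and CON in level. Of the epithelial list of EPCAM, CDH1 and KRT18, KRT18 had 0.95 and 0.91 against CON (adjusted p = 0.0814), and KD1 against WT gave −1.02 and −1.26 (adjusted p = 0.0516). The summed linear intensity of the 3 genes was 1350 and 1870 in the WT extracts and between 667 and 894 in the others. KRT18 made up most of this sum, with log2 levels of 10.39 and 10.72 in WT and 9.36 to 9.79 in the others. EPCAM and CDH1 were not well above background in KD1 or CON, and their log2 levels in WT extract 1 were 1.96 and 1.78. Of the 5 muscle markers, MYOG, the myogenic factor of differentiating muscle, was lower in WT than in CON (−1.73, adjusted p = 0.0183), MYF5, a factor of myoblasts, had 1.84 and 1.33 (mean 1.58, adjusted p = 0.0948), and MYOD1, DES and CDH15 did not reach 2-fold in any comparison. The part of these genes in the integrin values was not tested.

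The 65 related genes comprised 9 other integrin genes, counting the integrin-binding protein ITGB1BP1, 29 other adhesion proteins and 27 matrix ligands, counting the cell-surface protein VCAM1. Of these 65 genes, 0 were called by limma for KD1 against CON (47 passed the filter) and 0 against WT (53 passed). An unadjusted p under 0.05 was reached by 8 and 16 of them, beside the 17.8% and 17.2% of all genes, and the fit to separate-channel values also called 0 in both. ITGB2, the beta chain of leukocyte integrins, met the 2-fold criteria in both KD1 comparisons, at −1.82 (adjusted p = 0.0629) and −1.57 (adjusted p = 0.113). In KD1 vs WT, 6 of 23 matrix ligands that passed the filter also met them, all lower in KD1: COL4A2, COL6A1, COL6A2, LAMA4, TGFBI and TNC, with means from −1.20 to −2.19, beside 2.6% of all genes lower. The median of the ligands was −0.74, beside −0.03 for the other adhesion proteins and 0.0012 for all genes. In KD1 vs CON, 0 of the 19 ligands that passed the filter met the 2-fold criteria, and their median was 0.085. There 2.18% of all genes met these criteria as higher and 2.28% as lower. The ligand median in WT vs CON was 0.602.

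In WT vs CON, 2 of the 53 related genes that passed the filter were called, both higher in WT and both matrix ligands. Of all genes, 0.957% were called higher there and 0.679% lower. TNC, the tenascin-C bound by alpha 9 beta 1 and alpha v integrins, had 2.37 and 1.48 (mean 1.93, adjusted p = 0.0392). COL4A2, a basement membrane collagen chain, had 2.10 and 1.06 (mean 1.58, adjusted p = 0.0455). Neither was called with 3 residual degrees of freedom. COL4A1, FBN1, TGFBI, THBS1 and, among the adhesion proteins, LPP met the 2-fold criteria as well, all higher in WT, beside 2.69% of all genes higher. In KD1, where ITGA9 was higher, its ligand TNC had 1.05 and −0.27 against CON and −1.42 and −1.71 against WT (adjusted p = 0.0738). SPP1 (osteopontin) and VCAM1, which are also among the ligands of alpha 9 beta 1, did not pass the filter in any comparison.

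**Figure D4:**
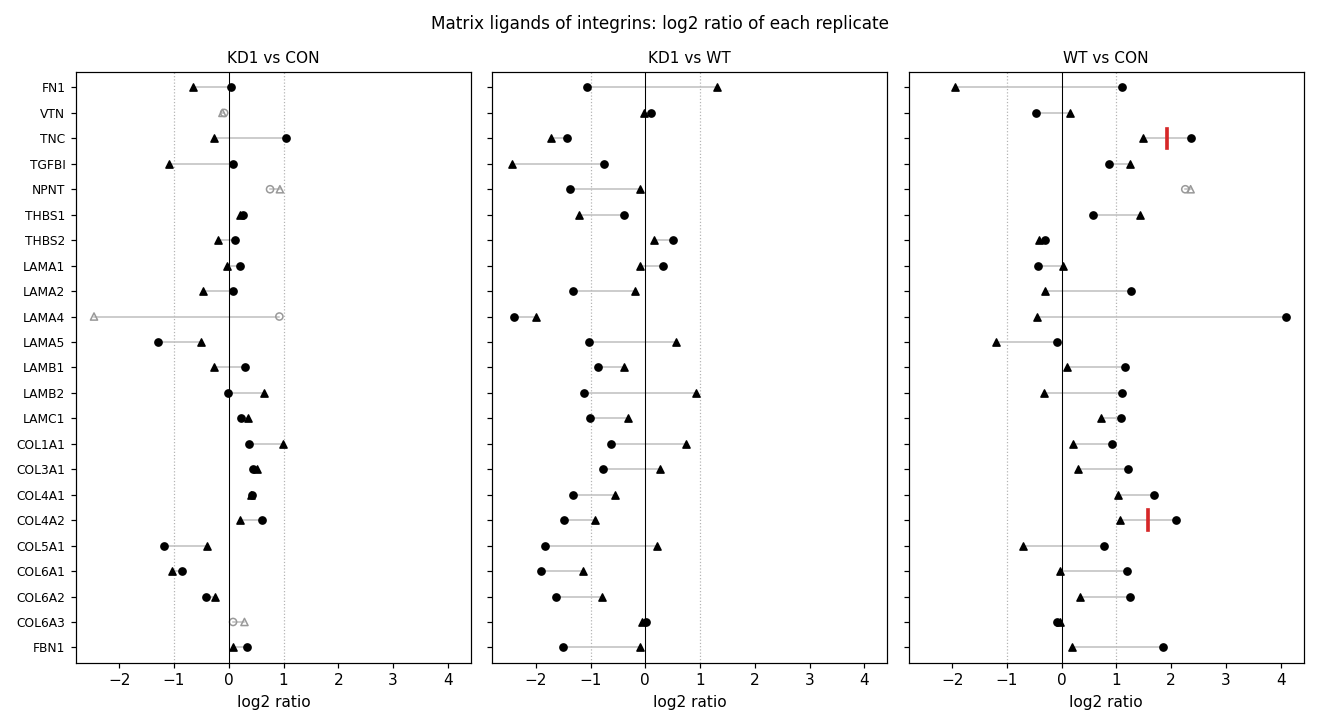
Log2 ratio (x axis) of 23 matrix ligands of integrins (y axis) in the 3 comparisons, with circles for replicate 1, triangles for replicate 2, open gray symbols where the signal filter was not passed, red bars for means called by limma and dotted lines at 2-fold. TNC and COL4A2 carry the calls, in WT vs CON, and the KD1 vs WT ratios lie mostly below 0.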

How the data were processed

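Gene expression was measured on 2-color Agilent whole human genome arrays with 41000 gene probes (43376 spots). Per the file headers, positions are on build NCBI36. Spots were quantified in Feature Extraction 10.5.1.1 per the submitters' processing notes, and the authors deposited linear intensities per channel, both with background subtracted and further detrended and lowess-normalized within each array, where dim spots receive a surrogate value. They also deposited a log10 ratio per spot and, in the series table, the same ratio on the log2 scale (largest difference after conversion 5.35e-06), already turned for swapped dyes. The members were chosen by symbol, and the members, the related genes and the marker lists were chosen with earlier results of these data known.

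Log2 ratios of the authors' processed intensities were turned so that the culture named first is the numerator. Spots with an outlier flag (95 to 188 per array) were dropped, and values were averaged over spots and over both dye orientations, which left 2 replicate values per comparison. A probe passed the filter if, on each array of a comparison, either channel's subtracted signal lay above the 99th percentile that the 153 negative controls gave there. The 6 replicate values were fitted in R 4.3.3 using limma 3.58.1 (lmFit, then eBayes), with 1 coefficient per comparison. Residual degrees of freedom were set by hand to 2 in place of the 3 that limma counts, since a replicate's 3 comparisons were made from only 3 extracts and their ratios nearly add up. Benjamini-Hochberg adjustment covered all probes that passed: 21925 for KD1 vs CON, 24860 for KD1 vs WT and 26566 for WT vs CON. The threshold was 0.05, and SE is limma's moderated error. In simulated data modeled on KD1 vs CON (21925 probes), 93.5% of 200 probes changed by 2 on the log2 scale were recovered, with a mean of 10.9 false calls.

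Where no array had a culture well above background, a fold is a lower bound against the dimmest signal well above background, after loess and Aquantile normalization of the channels. Levels per extract come from the same separate channels, each averaged over 4 arrays, and are not compared between probes. Same-numbered extracts were hybridized together, so the ratios pair the extracts by design. Full values are given for members called by limma or past 2-fold in at least 1 comparison, and the other members are given by role. Related genes were to be named if called in both KD1 comparisons, which none was. ITGB2, the ligands and LPP, and the members given with replicate values beyond this rule (ITGB6, ITGA5, ITGA7, ITGA11, FERMT2 and PARVB), were singled out after their values were seen. The figures were drawn with matplotlib 3.10.9. No genome of the files' build was used here, so probes were not assigned to exons. The alternatives were normexp (offset 50) with loess, median centring, the series table, separate-channel values without the pairing, the slide as a block, no filter, a filter on both channels, the average of all probes, and each replicate left out. Adjustment over the brightest probe of each gene and 3 residual degrees of freedom were chosen after seeing the data.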

Additional observations from a re-analysis of the deposited data

How the results depend on the processing

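ITGA9 was called higher in both KD1 comparisons with median centring, the series table, the slide as a block, adjustment over the brightest probes and the average of all probes, and in the fit that ignores how extracts were paired on the arrays (no replicate block). The average of all probes takes in A_24_P607904, whose size against CON is not measured, so that call is not separate support. The ITGA9 values were 0.47 (adjusted p = 0.197) and 0.46 (adjusted p = 0.177) with normexp. No called value changed sign under any alternative. Members called in KD1 vs CON, where 1 was called, numbered 0 with normexp (6 at an unadjusted p under 0.05), 3 with median centring, 5 with the slide as a block, 0 with the filter on both channels (5 at an unadjusted p under 0.05) and 2 with the average of all probes. In KD1 vs WT, where 1 was called, they numbered 0 with normexp (9 at an unadjusted p under 0.05), 2 with median centring, 6 with the slide, 2 with the filter on both channels and 2 over the brightest probes. In WT vs CON, where 2 were called, they numbered 0 with normexp (5 at an unadjusted p under 0.05), 1 without the replicate block, 6 with the slide, 1 without the filter, 1 with the filter on both channels and 0 with the average of all probes (6 at an unadjusted p under 0.05). Without the replicate block 1 member was called in each comparison, ITGA9 higher in both KD1 comparisons and ITGA2 higher in WT. Without the filter, the call in KD1 vs WT was ITGA2 lower, and ITGA9 had adjusted p = 0.061. With 3 residual degrees of freedom, chosen after seeing the data, 1 member was called in each comparison (ITGA9, ITGA9 and ITGA2), and the related genes called numbered 1 in KD1 vs CON and 0 in WT vs CON (14 at an unadjusted p under 0.05). With median centring and with the slide, limma's prior degrees of freedom were infinite, so 1 spread served all probes. The share of all genes called was not computed under the alternatives, so no count of calls here can be set beside it.

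Related genes called numbered 4, 6 and 5 with median centring in KD1 vs CON, KD1 vs WT and WT vs CON, and 8, 13 and 15 with the slide. They numbered 1 without the filter in KD1 vs CON and 1 in WT vs CON, where normexp and the fit without the replicate block gave 0 each (18 and 17 at an unadjusted p under 0.05). Members past 2-fold numbered 0 with normexp and 2 with the filter on both channels in KD1 vs CON, 1 with normexp in KD1 vs WT and 2 with the average of all probes in WT vs CON. With a replicate left out they ranged from 3 to 5, 4 to 7 and 4 to 8 in the same order, with no test possible. Shares of all genes past 2-fold were computed only where given above. The members' median moved to −0.12 in KD1 vs CON and −0.0662 in WT vs CON with median centring, and in WT vs CON to 0.17 without the replicate block and 0.0735 with the average of all probes. With a replicate left out it ranged from 0.03 to 0.14, −0.27 to 0.07 and 0.0547 to 0.0908. The cause of these shifts was not tested. Among the brightest probes, low signal limits ITGA2, PARVB, ITGA8 and ITGA10, which were not well above background in every channel, and it limits the ITGA9 probe A_24_P607904. The brightest probes of ITGA9 and ITGB8 did not pass the filter on both channels in KD1 vs CON.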
